A study of Mus musculus with 63 samples.

Results

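A set of 8 alpha-defensin genes of the mouse small intestine was followed across the RNA-Seq libraries of a study of the Mediator kinases CDK8 and CDK19. The 8 genes, Defa17, Defa21, Defa22, Defa24, Defa26, Defa30, Gm14851 and AY761184, were taken by symbol from count tables that hold 54752 genes each. The 57 libraries used fall into 19 groups of 3 and hold between 15485959 and 32909565 counted fragments each. Near-identical members of this family share reads, so the summed level of the 8 genes is given beside the level of each gene. Levels are CPM, each library's counts scaled to a common library size, with library sizes scaled by edgeR's trimmed mean method within each count table.

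Alpha-defensins, called cryptdins in the mouse intestine, are small cationic peptides with a fixed pattern of cysteines that kill bacteria. Paneth cells at the base of the small intestinal crypt store them in granules as inactive precursors, which the protease MMP7 cuts to the active form, and release them into the crypt lumen. Mice carry a large cluster of these genes, together with a related set that codes for the cryptdin-related sequence (CRS) peptides, which have more cysteines and are not found in humans. Their transcription is tied to Paneth cell maturation, which depends on Wnt signals read out by beta-catenin and TCF factors.

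All mice and organoids were labelled C57BL/6. VillinCreERT2 is a tamoxifen-inducible Cre recombinase driven by the Villin promoter, which is active in the intestinal epithelium. Intestinal epithelial cells (IECs) came from VillinCreERT2 mice and from VillinCreERT2/Cdk8fl/fl/Cdk19-/- mice (CDK8iIEC-KO/Cdk19-/-), all given 5 daily injections of tamoxifen (80 mg/kg) and sampled 14 days after the last one; ages were not given. Small intestinal organoids, self-renewing epithelial cultures in Matrigel, were exposed for 24 h to 100 nM 4-hydroxytamoxifen (4-OHT) or to 0.001% EtOH. At day 7, 5 organoid genotypes were compared after 4-OHT, namely VillinCreERT2, C57BL/6, VillinCreERT2/Cdk8fl/fl (CDK8iIEC-KO), Cdk8fl/fl/Cdk19-/- without Cre, and CDK8iIEC-KO/Cdk19-/-. A VillinCreERT2/Cdk8fl/fl/Cdk19-/- line was sampled 3, 5, 7 and 10 days after 4-OHT or EtOH, and at day 10 in Wnt3-conditioned medium (Wnt3-CM). A VillinCreERT2/Cdk8fl/fl/Cdk19D173A/- line, in which the remaining CDK19 is kinase dead, was sampled at day 7. The EtOH controls of both inducible lines therefore lacked 1 or both copies of Cdk19, and 4-OHT was given to delete Cdk8. No line with Cre alone was sampled after EtOH. In the 4-OHT against EtOH comparisons of these libraries, 4-OHT exposure and Cre activation therefore cannot be told apart from Cdk8 deletion. By the column names each organoid group was 1 line. The day 7 CDK8iIEC-KO/Cdk19-/- organoids were a different line of the same genotype than the time course and Wnt3-CM organoids. Nothing states that the replicates came from separate mice, so p-values measure the spread between cultures of a line only. The IEC columns carried separate animal numbers.

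Across the organoid libraries Cdk8 stood between 34.2 and 83.1 CPM and Cdk19 between 24.3 and 60.0 CPM. In the day 7 lines Cdk8 averaged 66.3 CPM in CDK8iIEC-KO/Cdk19-/-, 80.6 CPM in CDK8iIEC-KO, 75.6 CPM in VillinCreERT2 and 64.8 CPM in Cdk8fl/fl/Cdk19-/-. Counts over a whole gene also hold reads from outside a deleted part, so they did not check the deletions. All 5 epithelial markers were detected in every group. The summed level of 10 immune markers was at most 4.2 CPM in organoids, with 1 to 7 of the 10 at 0 in a group, but reached 967 CPM in IECs.

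**Figure D1:**
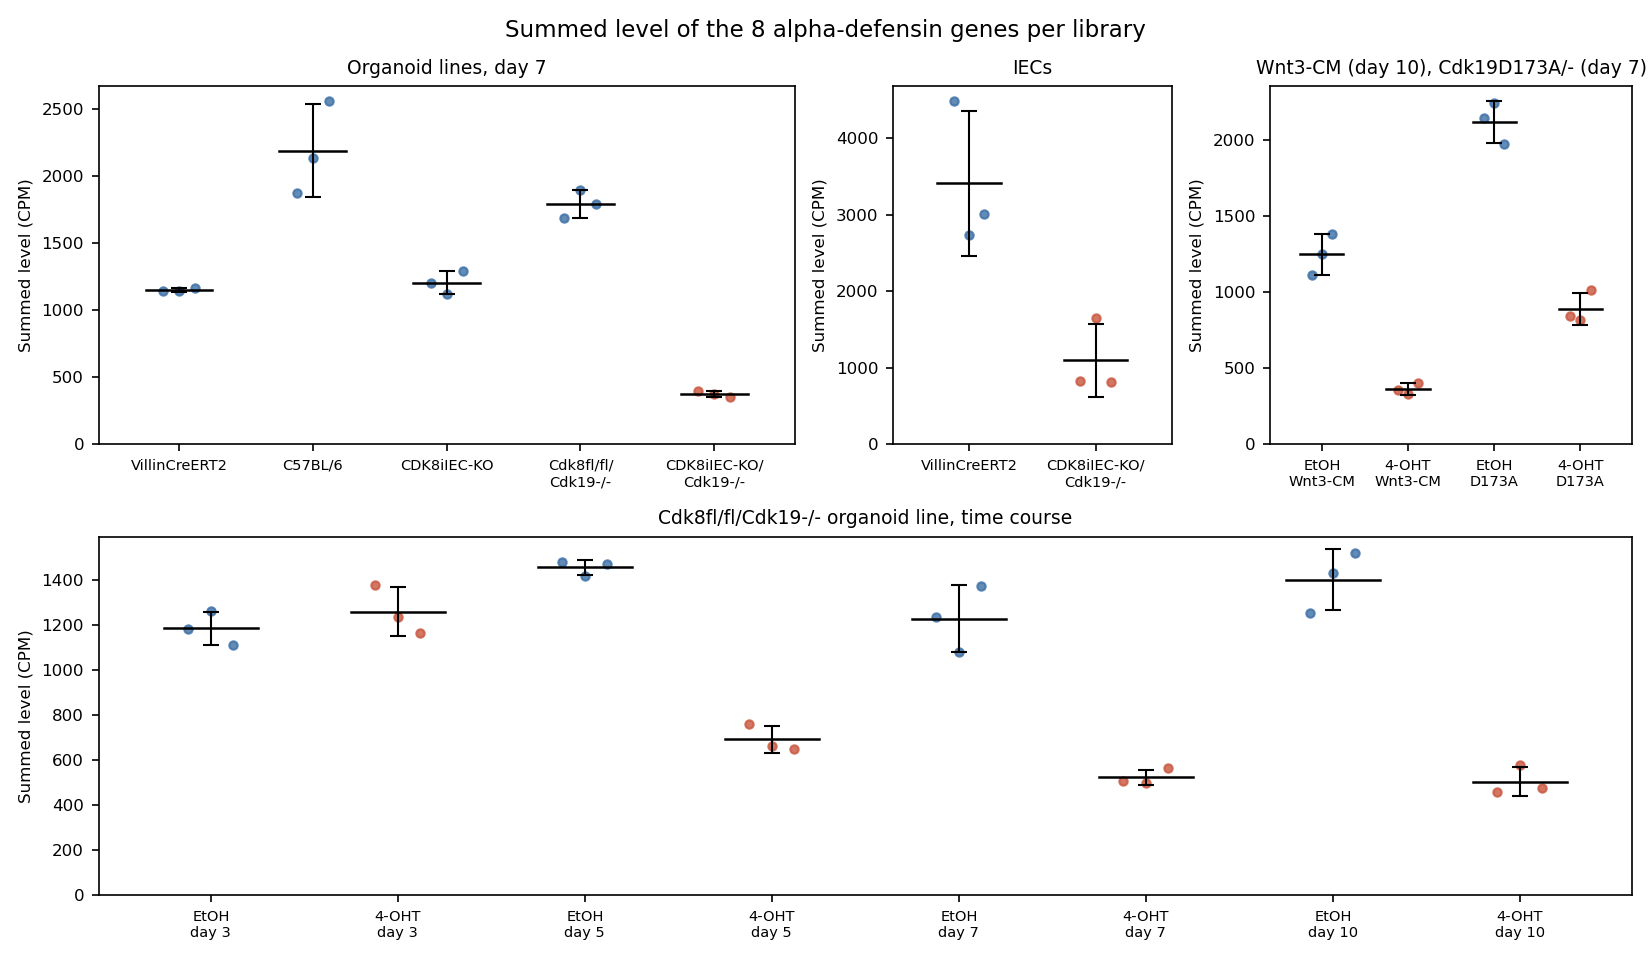
Summed level of the 8 alpha-defensin genes in every library, in CPM on a linear axis from 0, by group, with blue for controls and single knockouts (EtOH in the treated lines) and red for CDK8 loss together with CDK19 loss or the D173A allele (4-OHT). Points are libraries, lines are means and bars are SD (n = 3). Within each panel red and blue libraries do not overlap except at day 3, where the 4-OHT libraries (1165 to 1378 CPM) lie over the EtOH libraries (1111 to 1260 CPM).

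The 8 genes lie on mouse chromosome 8 (GRCm38), each with 2 exons that are both coding in the GENCODE vM21 annotation. The plus strand holds 6, at chr8:21655780-21656735 (Defa17), chr8:21025545-21026516 (Defa21), chr8:21162277-21163249 (Defa22), chr8:21734494-21735471 (Defa24), chr8:21618183-21618972 (Defa26) and chr8:21134642-21135598 (Defa30). The coding sequence of these 6 has 93 codons before the stop, and the last coding exon, which encodes the mature peptide, has 6 cysteine codons. The other two are on the minus strand, at chr8:21095074-21096050 (Gm14851) and chr8:21702519-21703645 (AY761184), with 116 codons and 11 cysteine codons in the last coding exon. RefSeq lists these as Defa38 (CRS1C-2) and Defa39 (CRS1C-3), so they are called the CRS members here and the other 6 the cryptdin members.

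The last coding exons of the cryptdin members are shown because they carry the differences that let reads be told apart (GRCm38, gene strand, 5′ to 3′, coding bases only). Capitals mark the bases that differ from Defa24 at the same place. Defa22 is left out, since its coding sequence was 99.3% identical to that of Defa21.
Defa24 (chr8:21735268-21735374): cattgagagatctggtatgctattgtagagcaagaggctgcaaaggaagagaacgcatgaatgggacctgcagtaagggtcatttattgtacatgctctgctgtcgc
Defa30 (chr8:21135394-21135500): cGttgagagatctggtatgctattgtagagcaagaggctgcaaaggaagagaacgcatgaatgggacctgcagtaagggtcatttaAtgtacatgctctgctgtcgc
Defa17 (chr8:21656532-21656638): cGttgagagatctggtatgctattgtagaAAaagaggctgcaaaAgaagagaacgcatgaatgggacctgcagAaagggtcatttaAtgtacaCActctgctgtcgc
Defa26 (chr8:21618773-21618879): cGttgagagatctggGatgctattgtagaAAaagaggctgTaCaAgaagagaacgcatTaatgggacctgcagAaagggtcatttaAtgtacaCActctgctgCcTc
Defa21 (chr8:21026314-21026420): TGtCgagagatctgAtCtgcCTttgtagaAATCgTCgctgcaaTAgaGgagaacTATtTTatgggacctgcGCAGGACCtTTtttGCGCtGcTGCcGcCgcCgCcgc

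Defa30 differed from Defa24 at 2 of the 107 bases, Defa17 at 8, Defa26 at 14 and Defa21 at 43. Over the whole coding sequence Defa24 was 98.6% identical to Defa30, 95.7% to Defa17, 89.2% to Defa26 and 80.7% to Defa21.

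The last coding exons of the CRS members, on the minus strand, are shown for their added cysteine repeats. Capitals mark the bases of AY761184 that differ from Gm14851.
Gm14851 (chr8:21095077-21095252): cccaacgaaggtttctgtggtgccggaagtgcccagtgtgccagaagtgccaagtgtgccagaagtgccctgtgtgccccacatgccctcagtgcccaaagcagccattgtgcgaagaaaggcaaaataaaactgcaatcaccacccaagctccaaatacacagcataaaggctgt
AY761184 (chr8:21702631-21702806): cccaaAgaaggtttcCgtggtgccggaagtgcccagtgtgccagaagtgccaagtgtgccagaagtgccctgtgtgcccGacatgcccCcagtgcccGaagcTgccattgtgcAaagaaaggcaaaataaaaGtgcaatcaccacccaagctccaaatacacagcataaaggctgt

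These exons differed at 8 of 176 bases, and the coding sequences were 96.8% identical. Identity between a cryptdin and a CRS coding sequence was 63.6 to 67.1%.

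How far a gene's level can be read alone depends on such copies. Of the 100-base stretches of the Defa17 transcript, 90.6% (270 of 298) occurred in another annotated transcript, that of Defa3 or Defa30. The share was 40.4% for Defa21 and 40.3% for Defa22, each with the other, and 17.9% for Gm14851 with Defa29. It was 1.1% for Defa26, 0.3% for Defa30, and 0.0% for Defa24 and AY761184. The treatment of reads that map to several genes is not given in the sources used here, so the levels of Defa17, Defa21 and Defa22 are uncertain between the copies, while Defa24, Defa30, Defa26 and AY761184 rest almost wholly on reads of their own.

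The RefSeq promoter table (GRCm38.p6) held 4 of the 8 genes, and the 250 bases before 3 of these starts are shown because Wnt signals act through TCF factors. Capitals mark ATCAAAG, the core letters bound by TCF factors, searched on both strands. The Defa22 window (chr8:21162027-21162276) was identical to that of Defa21.
Defa21 (chr8:21025295-21025544, plus strand): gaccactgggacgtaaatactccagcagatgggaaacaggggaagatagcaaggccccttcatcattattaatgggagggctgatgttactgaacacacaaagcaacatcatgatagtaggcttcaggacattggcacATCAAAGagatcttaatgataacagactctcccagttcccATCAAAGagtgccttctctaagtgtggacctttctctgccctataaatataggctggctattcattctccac
Defa30 (chr8:21134400-21134649, plus strand): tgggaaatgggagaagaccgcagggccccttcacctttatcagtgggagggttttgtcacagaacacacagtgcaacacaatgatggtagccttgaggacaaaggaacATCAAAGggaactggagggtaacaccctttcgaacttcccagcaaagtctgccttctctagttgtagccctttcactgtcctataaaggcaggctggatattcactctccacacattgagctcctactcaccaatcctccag
Gm14851 (chr8:21096051-21096300, minus strand): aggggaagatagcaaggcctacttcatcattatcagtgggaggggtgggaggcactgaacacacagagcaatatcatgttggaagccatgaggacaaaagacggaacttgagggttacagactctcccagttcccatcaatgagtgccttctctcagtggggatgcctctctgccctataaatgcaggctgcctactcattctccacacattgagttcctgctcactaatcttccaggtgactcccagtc

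ATCAAAG occurred 2 times in the Defa21 and Defa22 windows, 112 and 72 bases before the start, once in the Defa30 window, 142 bases before it, and not in the Gm14851 window. All 4 windows held the core promoter letters TATAAA, 31 bases before the start in Defa21 and Defa22, 61 in Defa30 and 74 in Gm14851. Of 27025 RefSeq promoter windows of this length 3.2% held ATCAAAG at least once, against 13 of the 16 alpha-defensin promoters listed. It occurred at least 2 times in 0.0999% of all windows. TATAAA was in 13.0% of all windows and in 15 of the 16. A match is a description of letters and not a binding site. Aligned over the window, Defa21 was 61.8% identical to Defa30 and 58.0% to Gm14851. The windows are placed by annotated starts, and unmatched ends count against these identities.

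Defa24 was the main member. It held 41.0 to 77.0% of the summed CPM of the 8 genes in the organoid groups and had the highest mean per kilobase of exon in every organoid group, for instance 2115 CPM per kilobase in VillinCreERT2 organoids, where Defa26 stood at 41.6. It was highest in VillinCreERT2 IECs as well (2573), but in CDK8iIEC-KO/Cdk19-/- IECs Gm14851 (696 CPM per kilobase) stood beside it (685). The members held 84.5 to 98.5% of the CPM of all alpha-defensin genes in each library. The CRS members took up more of the sum in IECs. In VillinCreERT2 IECs Gm14851 held 17.6% and AY761184 15.0% of it, but in VillinCreERT2 organoids they held 2.7% and 1.3%.

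The control organoids differed before any kinase was lost. The day 7 lines fall in 2 sets by the style of the column names and by depth. C57BL/6, Cdk8fl/fl/Cdk19-/- and CDK8iIEC-KO/Cdk19-/- held 15485959 to 18440256 counts, and VillinCreERT2 and CDK8iIEC-KO 20424462 to 21449826. What the sets stand for is not stated, and in comparisons between them set and line cannot be told apart. The summed level was 1140, 1144 and 1166 CPM in the 3 VillinCreERT2 libraries, and 1871, 2130 and 2559 CPM in the 3 C57BL/6 libraries, a log2 ratio of 0.93. In C57BL/6, 7 of the 8 members were higher (adjusted p under 0.05 and over 1.5-fold, by edgeR), where 15.5% of the 15125 genes tested were called higher. Gm14851 stood at 147, 165 and 165 CPM in C57BL/6 and at 31.5, 31.7 and 31.5 CPM in VillinCreERT2. The groups lay far apart, with a log2 fold change of 2.33 (SE 0.063, adjusted p = 2.03e-20). Defa17 (log2 2.27) and Defa30 (1.95) rose most among the cryptdin members, and Defa24 differed least (0.37, SE 0.089, under 1.5-fold).

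Other markers moved with this difference between lines. Of 8 Paneth genes outside the family 6 were higher and 1 lower in C57BL/6, with Lyz1, the gene of lysozyme, at log2 2.00. Of 5 genes of the distal small intestine 3 were lower in C57BL/6, where their summed level was 234 to 285 CPM, against 357 to 712 CPM in VillinCreERT2. Of 5 proximal genes 2 were lower (2383 to 2482 against 1841 to 2539 CPM). Of 5 general epithelial genes 1 was lower. Of the non-epithelial markers 1 of 2 pancreatic acinar genes and the 1 mesenchymal gene tested were higher. Of 7 goblet genes 3 were lower (2623 to 2819 against 3616 to 3773 CPM), of 8 enterocyte genes 2 were lower and of 6 stem cell genes 2 were higher. The part of these markers in the difference between the lines was not tested. In these bulk libraries fewer Paneth cells and less defensin RNA per Paneth cell cannot be told apart, here or in any later comparison.

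With CDK8 alone lost, no cryptdin member passed both limits and both CRS members were higher. In CDK8iIEC-KO organoids the summed level was 1205, 1116 and 1291 CPM, which overlapped the VillinCreERT2 libraries. AY761184 stood at 61.5, 60.0 and 64.4 CPM against 15.5, 13.0 and 14.9 CPM in VillinCreERT2, with no overlap and a log2 fold change of 2.10 (SE 0.077, adjusted p = 2.75e-17). Gm14851 stood at 69.6, 66.5 and 72.5 CPM against 31.5, 31.7 and 31.5 CPM (log2 1.14, SE 0.063, adjusted p = 6.16e-13). These 2 of 8 members were called higher, where 2.9% of all genes tested were. The 6 cryptdin members lay between log2 -0.10 and 0.26, and Defa30, at 0.26 (adjusted p = 0.0336), was under 1.5-fold. Against C57BL/6 organoids, a control chosen after seeing the data, 6 members were called lower (12.6% of genes tested were), the summed log2 ratio was -0.86, and Gm14851 was lower (-1.19), with AY761184 at 0.29 and not called, so the direction for Gm14851 turned with the control line. Markers moved in the comparison with VillinCreERT2 too. Of the 5 distal genes 4 were lower (166 to 183 against 357 to 712 CPM), and 2 of 5 proximal, 4 of 8 enterocyte and 3 of 7 goblet genes were lower, while 2 of 8 Paneth genes outside the family and 1 of 6 stem cell genes were higher. In CDK8iIEC-KO 1 of 2 pancreatic acinar genes tested was lower. Their part in the levels of the CRS members was not tested.

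With CDK19 alone lost, 2 of the 8 members were called, in opposite directions. Cdk8fl/fl/Cdk19-/- organoids held a summed level of 1682, 1894 and 1788 CPM and overlapped the C57BL/6 libraries, with a log2 ratio of -0.29. Defa30 was at 267, 286 and 266 CPM against 385, 423 and 512 CPM and was called lower (log2 -0.69, SE 0.086, adjusted p = 1.17e-05), where 2.39% of genes were. AY761184 was at 78.9, 78.5 and 78.9 CPM against 47.2, 52.0 and 52.8 CPM and was called higher (log2 0.64, SE 0.069, adjusted p = 1.39e-07), where 2.86% were. The other 6 members lay between log2 -0.32 and 0.49. Leaving out C57BL/6 replicate 3 left 1 call, without Defa30, and leaving out Cdk8fl/fl/Cdk19-/- replicate 1 gave 3, with Defa22 higher. Of the marker genes 3 of 5 distal and 2 of 5 proximal ones were higher, and 2 of 6 stem cell genes and 1 of 8 Paneth genes outside the family (Lyz1) were lower; their part was not tested. Set against VillinCreERT2 instead, chosen after seeing the data, 7 members were called higher (10.7% of genes tested were) and the summed log2 ratio was 0.64.

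**Figure D2:**
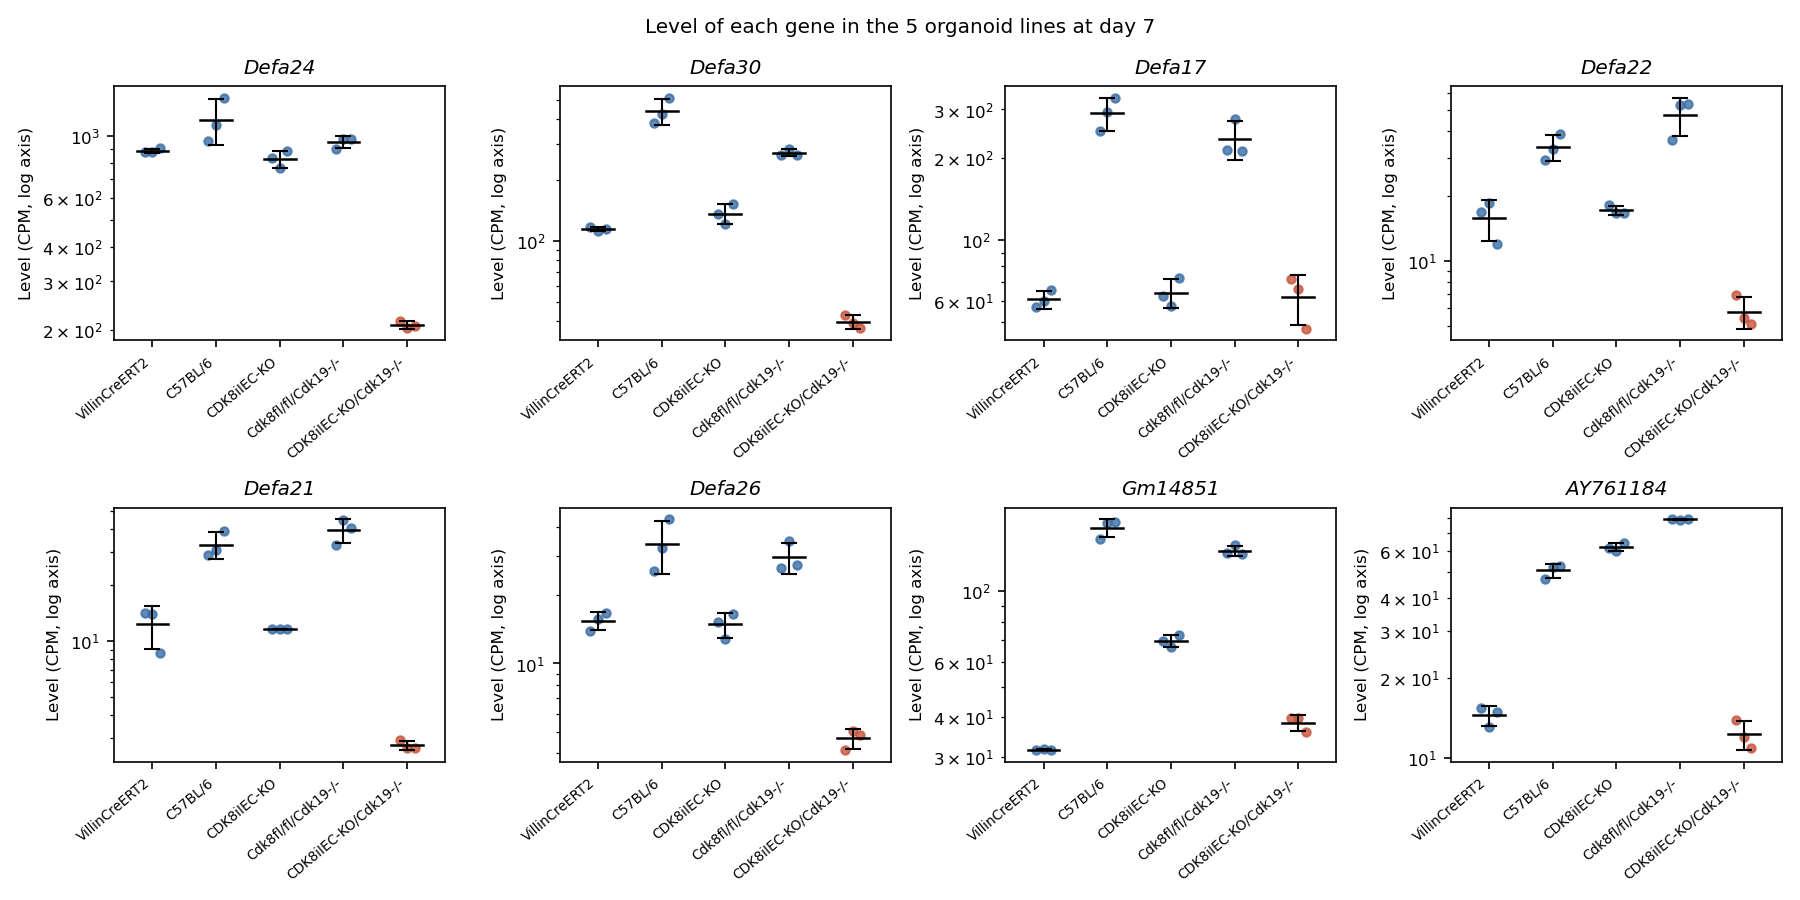
Level of each gene, in CPM on a log axis, in the 5 organoid lines at day 7 after 4-OHT, with points for libraries, lines for means and bars for SD (n = 3). CDK8iIEC-KO/Cdk19-/- (red) is the lowest group for Defa24, Defa30, Defa22, Defa21 and Defa26, while Defa17, Gm14851 and AY761184 there lie near the VillinCreERT2 values.

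Loss of both kinases was accompanied by the lowest summed level of the 5 lines. The CDK8iIEC-KO/Cdk19-/- libraries held 399, 375 and 351 CPM, and none reached the lowest library of another line (1116 CPM). Against VillinCreERT2 the sum was 3.07 times lower (log2 -1.62), and 5 of 8 members were called lower where 7.95% of the 15125 genes were. All 5 were cryptdin members. The order of the summed levels was C57BL/6 (2186 ± 347 CPM, SD, n = 3), Cdk8fl/fl/Cdk19-/- (1788 ± 106), CDK8iIEC-KO (1204 ± 87.6), VillinCreERT2 (1150.2 ± 14.0) and CDK8iIEC-KO/Cdk19-/- (375 ± 23.7). C57BL/6 overlapped with its neighbour Cdk8fl/fl/Cdk19-/-, as did CDK8iIEC-KO with VillinCreERT2.

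Defa24 stood at 216, 204 and 207 CPM in CDK8iIEC-KO/Cdk19-/- organoids and at 875, 880 and 903 CPM in VillinCreERT2. The groups were well apart, with a log2 fold change of -2.08 (SE 0.094, adjusted p = 1.51e-12). Defa30 was at 42.9, 39.2 and 37.0 CPM against 116, 111 and 114 CPM (log2 -1.52, SE 0.096, adjusted p = 1.78e-10). These are the cryptdin members with the most reads of their own. Defa21 fell from 14.2, 14.0 and 8.6 CPM to 2.92, 2.65 and 2.66 CPM (log2 -2.16, SE 0.23, adjusted p = 9.65e-07). Its near-copy Defa22 had a log2 fold change of -1.44 (SE 0.21, adjusted p = 6.86e-05) and Defa26 one of -1.73 (SE 0.21, adjusted p = 8.73e-06).

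Defa17, the member with few reads of its own, did not follow. It stood at 71.9, 66.4 and 47.4 CPM against 56.7, 59.6 and 65.6 CPM, with overlap (log2 0.03, SE 0.18, adjusted p = 0.90). Neither CRS member was called. Gm14851 was at 39.7, 39.7 and 35.8 CPM against 31.5, 31.7 and 31.5 CPM, above all controls but under 1.5-fold (log2 0.28), and AY761184 was at 14.0, 12 and 10.9 CPM against 15.5, 13.0 and 14.9 CPM (log2 -0.24). Without Defa17 the summed log2 ratio was -1.80.

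Which members were called depended on the control line. Against Cdk8fl/fl/Cdk19-/- organoids, which also lack CDK19 and were treated with 4-OHT but have no Cre, all 8 members were called lower, by 1.81 to 3.84 on the log2 scale, where 4.26% of genes were. Defa21 was lowest relative to that line (log2 -3.84, SE 0.20, adjusted p = 5.74e-10) and Gm14851 differed least (-1.81, SE 0.062, adjusted p = 3.56e-18). The summed log2 ratio was -2.25. Against C57BL/6, a control chosen after seeing the data, all 8 were called lower as well (9.41% of genes were) with a summed log2 ratio of -2.54. Defa17 and Gm14851, at log2 0.03 and 0.28 against VillinCreERT2, were at -2.23 and -2.05 against C57BL/6. The cryptdin members Defa21, Defa22, Defa24, Defa26 and Defa30 were called lower against each of these 3 lines.

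Paneth and region markers moved too. Against VillinCreERT2, 6 of the 8 Paneth genes outside the family were lower in CDK8iIEC-KO/Cdk19-/- organoids and their summed level was 612 to 632 CPM, against 1888 to 1979 CPM. Of the 5 distal genes 4 were lower and 1 higher (328 to 403 against 357 to 712 CPM), of 5 proximal genes 1 was lower and 2 higher (3033 to 3205 against 1841 to 2539 CPM), of 8 enterocyte genes 2 were higher (14544 to 15760 against 13333 to 16232 CPM), of 7 goblet genes 3 were lower (2225 to 2456 against 3616 to 3773 CPM) and of 6 stem cell genes 5 were lower (460 to 616 against 1229 to 1463 CPM). Against Cdk8fl/fl/Cdk19-/-, 7 of 8 Paneth genes outside the family, 3 of 6 stem cell genes and 2 of 5 distal genes were lower, 2 of 5 proximal genes were higher, and of 8 enterocyte genes 4 were higher and 1 lower. The 1 mesenchymal gene tested was lower there, and against VillinCreERT2 1 of 2 pancreatic acinar genes was lower. Their part in the defensin levels was not tested.

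**Figure D3:**
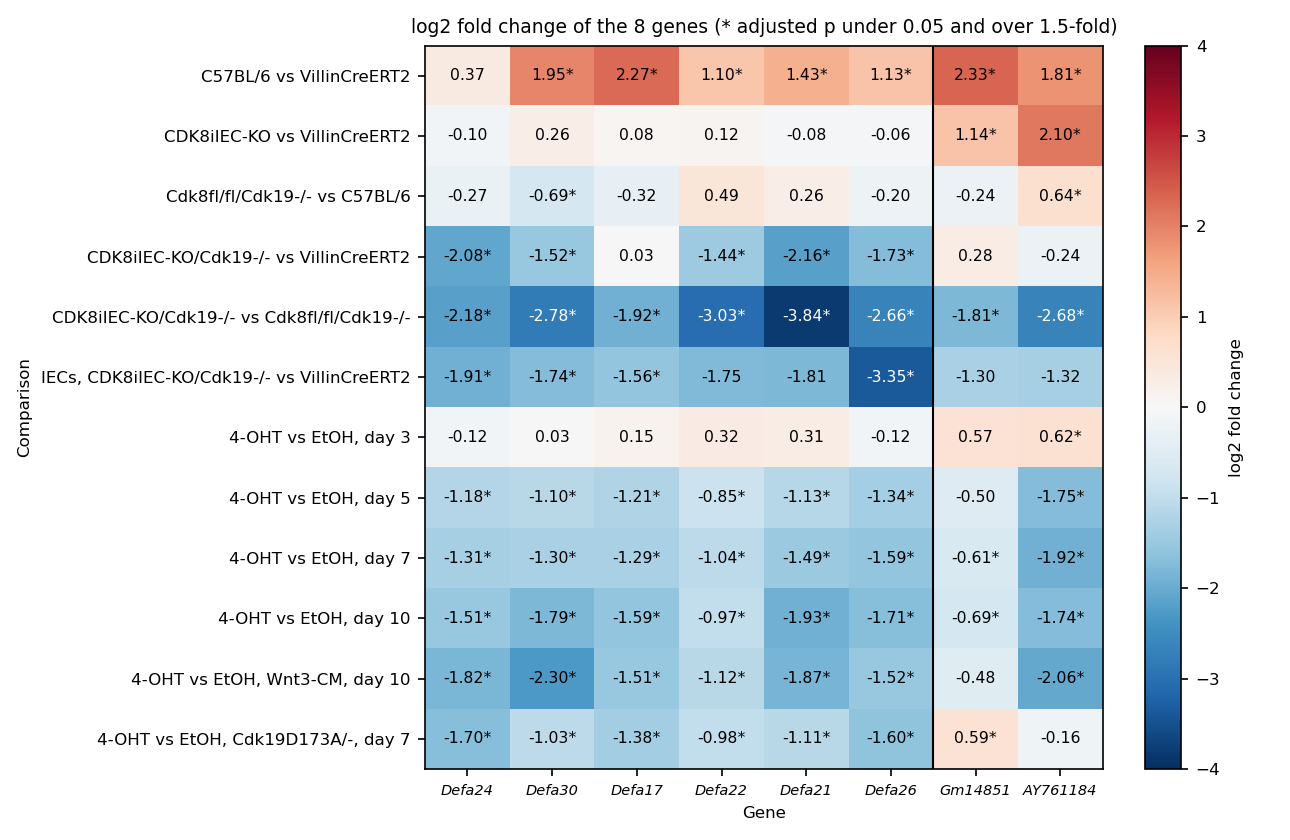
log2 fold change of each gene (columns, CRS members right of the line) in 12 comparisons (rows), with red for higher and blue for lower and an asterisk for an adjusted p under 0.05 with over 1.5-fold (edgeR). The 6 cryptdin columns are blue with both kinases lost in IECs, organoid lines, days 5, 7 and 10 and Wnt3-CM and in the D173A line, apart from Defa17 at 0.03 against VillinCreERT2 organoids, and the CRS columns range from -2.68 to 2.10 over the rows that involve a knockout.

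In the time course 1 line served as its own control, so the lines above play no part. Exposure to 4-OHT and Cre activation still went with Cdk8 deletion. The 8 genes were near their controls at day 3 and below them from day 5. At day 3 the summed level was 1378, 1236 and 1165 CPM after 4-OHT and 1184, 1260 and 1111 CPM after EtOH, with overlap. One member was called, AY761184, at 26.2, 24.5 and 25 CPM against 16.6, 15.0 and 17.6 CPM, and it was higher (log2 0.62, SE 0.12, adjusted p = 0.000155), where 6.42% of the 15447 genes tested were called higher. Gm14851 was just under the fold limit, at log2 0.57 (SE 0.13, adjusted p = 0.00159), and was called under upper quartile or total count scaling, with the day 3 groups alone, or without 4-OHT replicate 2 or 3, giving 2 calls. Without EtOH replicate 2 Gm14851 was called (0.69) and AY761184 was not (0.57). The cryptdin members lay between log2 -0.12 and 0.32.

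By day 5 the summed level was 762, 662 and 651 CPM after 4-OHT and 1482, 1417 and 1470 CPM after EtOH, 2.11 times lower. At this time 7 of 8 members were called lower, where 4.62% of genes were. Defa24 stood at 323, 286 and 281 CPM against 689, 697 and 634 CPM (log2 -1.18, SE 0.083, adjusted p = 8.77e-12). AY761184 showed the largest difference, at 8.71, 8.72 and 8.5 CPM against 24.3, 28.5 and 34.1 CPM (log2 -1.75, SE 0.13, adjusted p = 2.36e-11). Gm14851, at 86.5, 82.7 and 84.2 CPM against 121, 107 and 132 CPM, was lower by less than 1.5-fold (log2 -0.50, SE 0.13, adjusted p = 0.00433) and was called without EtOH replicate 2 (-0.59).

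The change between day 3 and day 5 was tested as a difference of responses. The 4-OHT response was lower at day 5 for all 8 members, by 1.06 (Defa24) to 2.37 (AY761184) on the log2 scale, where 9.01% of genes were called lower, and the summed response differed by -1.16. The EtOH organoids bore on this difference as well. Between day 3 and day 5 their summed log2 ratio was 0.30, and AY761184 was called higher (log2 0.82, SE 0.12, adjusted p = 6.94e-06), where 2.82% of genes were, with the other members between 0.18 and 0.54. Without EtOH day 3 replicate 2 or day 5 replicate 2 there were 2 calls. Of the markers in these EtOH organoids, 4 of 8 enterocyte, 2 of 8 Paneth genes outside the family and 1 each of the goblet, epithelial, proximal, distal and pancreatic acinar genes were higher. In the difference of responses 7 of 8 Paneth genes outside the family and 5 of 6 stem cell genes were lower, and 5 of 8 enterocyte genes were higher. Of 7 goblet genes 2 were lower and 1 higher, 1 proximal gene was lower and 1 distal gene higher. The part of these markers was not tested.

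**Figure D4:**
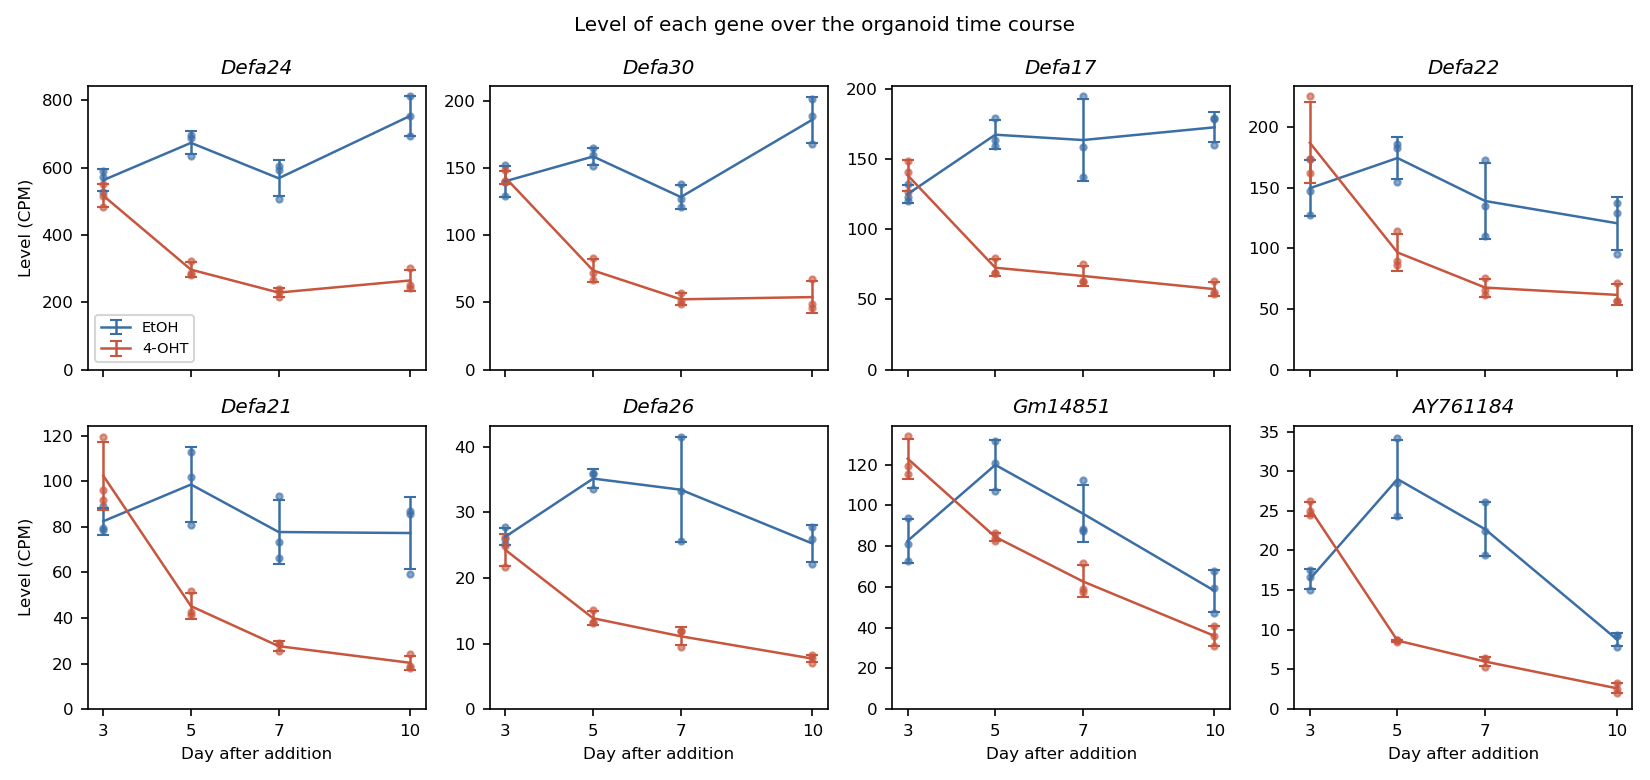
Level of each gene in CPM (linear axis from 0) in EtOH (blue) and 4-OHT (red) organoids by day after addition of EtOH or 4-OHT (3, 5, 7 or 10), with points for libraries, lines through group means and bars for SD (n = 3). Red and blue points lie close together or red lies higher at day 3, and the red means lie below the blue means for every gene at days 5, 7 and 10.

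At day 7 the summed level was 507, 498 and 563 CPM after 4-OHT and 1235, 1079 and 1372 CPM after EtOH. All 8 members were called lower, where 9.25% of genes were, with log2 fold changes from -0.61 (Gm14851) to -1.92 (AY761184) and a summed ratio of -1.23. Defa24 was at 231, 216 and 240 CPM against 605, 506 and 594 CPM (log2 -1.31, SE 0.084, adjusted p = 6.65e-13). At day 10 the summed level was 456, 579 and 477 CPM against 1255, 1430 and 1521 CPM, and again all 8 were called lower, where 6.92% were. Defa21 had the largest difference then, at 18.2, 24.0 and 18.7 CPM against 59.1, 85.8 and 87.0 CPM (log2 -1.93, SE 0.18, adjusted p = 6.75e-08), and Gm14851 again the smallest (-0.69). Gm14851 lost its call at day 7 without EtOH replicate 3 (-0.49) or 4-OHT replicate 1 (-0.56), and at day 10 without EtOH replicate 3 (-0.57).

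Markers of Paneth and other epithelial cells moved over the same days. At day 3, 7 of 8 enterocyte genes were lower after 4-OHT (2124 to 2497 against 5504 to 5975 CPM), and 3 of 6 stem cell genes and 3 of 8 Paneth genes outside the family were higher. Of these Paneth genes 6 were lower at day 5 and 7 at each of days 7 and 10, when their sum was 1903 to 2232 against 7392 to 7506 CPM. Of the stem cell genes 4, 4 and 5 of 6 were lower at days 5, 7 and 10 (1650 to 1859 against 3173 to 3435 CPM at day 10), and of 7 goblet genes 2, 1 and 2. Of the 8 enterocyte genes 2 were lower and 1 higher at day 5, 1 was higher at day 7 and 3 at day 10, and of 5 distal genes 3, 3 and 2 were higher at these days, with 1 lower at each of days 7 and 10. Of 5 proximal genes 1 was lower at day 3, 2 were lower at day 5 and 1 was higher at day 7. At day 3, 1 distal gene was higher and 1 goblet gene lower, and 1 of 5 general epithelial genes was higher at each of days 5, 7 and 10. Of 2 pancreatic acinar genes tested 1 was higher at each of days 3 and 10 (36.3 to 42.2 against 24.0 to 28.5 CPM at day 10). Of 2 mesenchymal genes tested 1 was lower at day 7, when 1 EtOH library held 36.6 CPM of mesenchymal markers and the median was 1.27 CPM. With 1 library left out at a time the summed log2 ratio at day 7 was between -1.33 and -1.15. Their part in the defensin levels was not tested.

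From day 7 to day 10 no member passed both limits for the difference in responses by edgeR, DESeq2 or limma-voom (3.42% of genes were called lower and 2.98% higher), 2 members had an unadjusted p under 0.05, as had 4702 of the 15447 genes tested, and the summed response differed by -0.24. Defa30 came closest, at log2 -0.49 (SE 0.15, adjusted p = 0.0282, under 1.5-fold), and was called when 4-OHT day 10 replicate 2 was left out. The CRS members also differed between the EtOH organoids of these days, which were separate harvests. In EtOH organoids AY761184 fell from 22.5, 19.4 and 26.1 CPM at day 7 to 7.85, 9.20 and 9.39 CPM at day 10 (log2 -1.36, SE 0.13, adjusted p = 5.02e-10) and Gm14851 from 87.2, 88.3 and 112 to 47.2, 59.4 and 67.6 CPM (log2 -0.73, SE 0.13, adjusted p = 9.79e-05), where 13.9% of genes were called lower. The cryptdin members lay between -0.41 and 0.53, and the summed ratio was 0.19. Leaving out EtOH day 7 replicate 3 or day 10 replicate 1 gave 3 calls, the third being Defa30, which was higher. Between these days 3 Paneth genes outside the family were lower and 1 higher, 2 enterocyte genes lower and 1 higher, 3 proximal genes lower, 2 distal genes lower and 1 higher, 2 stem cell genes higher and 1 mesenchymal gene lower; their part was not tested.

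Wnt3-CM supplies a ligand that Paneth cells normally make for the stem cells beside them. With it in the medium for 10 days the cryptdin members and AY761184 were still lower after 4-OHT. The summed level was 358, 328 and 404 CPM, against 1114, 1250 and 1385 CPM after EtOH, 3.44 times lower (log2 -1.78). Of the 8 members 7 were called lower, where 7.42% of the 13745 genes tested were. Defa30 was at 31.0, 26.0 and 34.8 CPM against 123, 156 and 171 CPM (log2 -2.30, SE 0.15, adjusted p = 4.52e-06) and Defa24 at 243, 223 and 269 CPM against 789, 868 and 935 CPM (log2 -1.82, SE 0.081, adjusted p = 2.38e-13). Gm14851 was at 8.44, 6.81 and 7.31 CPM against 6.84, 10.7 and 13.9 CPM, with overlap, and was not called (log2 -0.48, adjusted p = 0.111), but was without EtOH replicate 1 (-0.71, adjusted p = 0.00045). AY761184 was scarce in this medium, at 1.04, 0.535 and 0.629 CPM against 3.00, 3.20 and 3.05 CPM (log2 -2.06, SE 0.26, adjusted p = 1.03e-06).

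In Wnt3-CM all 8 Paneth genes outside the family were called lower after 4-OHT (1671 to 2056 against 6105 to 6751 CPM). Of the goblet genes 4 of 7 were lower (1916 to 1964 against 2830 to 3457 CPM), of the stem cell genes 1 of 6 was lower, and of the enterocyte genes 5 of 8 were higher, with overlapping sums. Of the 5 general epithelial genes 1 was lower (6808 to 7408 against 8644 to 9022 CPM), and of 4 proximal genes tested 1 was higher (399 to 442 against 249 to 295 CPM) and of 4 distal genes 1 was lower. Of 2 pancreatic acinar genes tested 1 was higher. Their part in the defensin levels was not tested.

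The response in Wnt3-CM was set against the day 10 response in standard medium in 1 fit of both tables. No member differed by edgeR, DESeq2 or limma-voom, where 6.21% of genes were called lower and 7.11% higher, and 1 member, Defa24, had an unadjusted p under 0.05 (log2 -0.31, SE 0.13, adjusted p = 0.074), as had 5631 of the 14337 genes tested. Differences ranged from -0.51 (Defa30, SE 0.24) to 0.21 (Gm14851, SE 0.31). The summed response differed by -0.31, and by -0.38 to -0.20 with 1 library left out at a time. Defa30 was called when Wnt3-CM EtOH replicate 1 was left out. The 2 media are in separate count tables, so medium and table cannot be told apart, and a p above the limit does not show equal responses.

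In the kinase-dead line the cryptdin members were lower, 1 CRS member was higher and the other was not called. After 4-OHT the summed level of Cdk19D173A/- organoids was 844, 817 and 1013 CPM against 2145, 2250 and 1977 CPM after EtOH, 2.38 times lower. All 6 cryptdin members were called lower, where 6.25% of the 15457 genes tested were. Defa24 was at 403, 405 and 495 CPM against 1470, 1467 and 1310 CPM (log2 -1.70, SE 0.092, adjusted p = 1.01e-06), Defa26 at log2 -1.60 and Defa22 least at -0.98. Defa17 varied most between controls, at 88.8, 156 and 117 CPM, and had a log2 fold change of -1.38 (SE 0.28, adjusted p = 0.0192). It lost the call without a filter on low counts or without EtOH replicate 3 or 4-OHT replicate 1, with its direction kept.

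Gm14851 was higher after 4-OHT, at 146, 137 and 164 CPM against 98.7, 103 and 94.9 CPM (log2 0.59, SE 0.077, adjusted p = 0.000359), where 6.05% of genes were called higher. It was just over the 1.5-fold limit and lost the call when scaled by upper quartile or total counts or without EtOH replicate 1 or 3 or 4-OHT replicate 3, with its direction kept. Without EtOH replicate 3, 5 members were called. AY761184 was at 53.7, 50.3 and 70.3 CPM against 68.5, 64.4 and 62.3 CPM, with overlap (log2 -0.16, SE 0.12, adjusted p = 0.331).

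The response of the Cdk19D173A/- line was set against the day 7 response of the Cdk19-/- line in 1 fit. The summed responses differed by -0.02, and the cryptdin members differed by -0.39 to 0.38 with no call (Defa24 at -0.39, adjusted p = 0.0395, was under 1.5-fold). AY761184 had a response higher by 1.75 (SE 0.19, adjusted p = 2.34e-05) and Gm14851 one higher by 1.2 (SE 0.145, adjusted p = 5.66e-05) in the Cdk19D173A/- line, where 4.9% of genes were called higher. The 2 lines also differed as lines and in count table, which cannot be told apart from the CDK19 allele. In the same difference of responses 3 of 8 Paneth genes outside the family were lower and 2 higher. There 4 of 8 enterocyte and 2 of 7 goblet genes were higher and 1 of 5 distal genes lower, with 1 stem cell and 1 proximal gene called in each direction. Within the Cdk19D173A/- line, 5 of the 8 Paneth genes outside the family were lower and Lyz1 was higher (log2 0.89) after 4-OHT. Of the stem cell genes 5 of 6 were lower (448 to 502 against 823 to 929 CPM), of the enterocyte genes 5 of 8 were higher (20115 to 22350 against 14968 to 16798 CPM), and of the goblet genes 2 were lower and 2 higher. Among region markers 1 proximal and 1 distal gene were higher (of 5 and 4 tested), and the 1 immune gene tested was higher and the 1 mesenchymal gene tested lower (mesenchymal sums of 4.7 to 10.7 against 9.02 to 10.0 CPM). Their part in the defensin levels was not tested.

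In IECs taken from mice all 8 members had lower means with both kinases lost, with a wide spread between animals. The summed level was 830, 1649 and 810 CPM in CDK8iIEC-KO/Cdk19-/- IECs and 4488, 2728 and 3015 CPM in VillinCreERT2 IECs, 3.11 times lower (log2 -1.64). Of the 8 members 4 were called lower, where 0.856% of the 15182 genes tested were, and 7 had an unadjusted p under 0.05, as had 3017 of all genes tested. Defa26 was at 1.54, 3.22 and 1.62 CPM against 32.4, 14.6 and 18.4 CPM (log2 -3.35, SE 0.43, adjusted p = 0.0302). Defa24 was at 233, 382 and 246 CPM against 1440, 852 and 942 CPM (log2 -1.91, SE 0.28, adjusted p = 0.0361). Defa30 (log2 -1.74) and Defa17 (-1.56) were called with the same adjusted p.

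The 4 members without a call had log2 fold changes of -1.30 (Gm14851), -1.32 (AY761184), -1.75 (Defa22) and -1.81 (Defa21), with adjusted p from 0.145 to 0.276. CDK8iIEC-KO/Cdk19-/- replicate 2 was the highest of its group for each of the 8, for instance with Defa21 at 169 CPM against 47.0 and 24.4 CPM. VillinCreERT2 replicate 2 was the lowest control for Defa21 (177 CPM, against 328 and 335 CPM), Defa22, Defa24, Defa17 and Defa26. Without CDK8iIEC-KO/Cdk19-/- replicate 2, 7 members were called. With any of CDK8iIEC-KO/Cdk19-/- replicate 1 or 3 or VillinCreERT2 replicate 1 or 3 left out no member was called, with adjusted p of Defa24 from 0.0786 to 0.116, and the log2 fold changes of Defa24 stayed between -1.65 and -2.18.

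No immune, mesenchymal or pancreatic acinar marker was called between the IEC genotypes (0 of 10, 0 of 6 and 0 of 4 tested), but the immune and acinar sums were higher in every CDK8iIEC-KO/Cdk19-/- library than in any VillinCreERT2 library. The acinar sums were 11.7 to 48.5 against 4.12 to 8.26 CPM. The 10 immune markers, all detected, summed to 610 to 967 CPM in CDK8iIEC-KO/Cdk19-/- IECs and 56.2 to 308 CPM in VillinCreERT2 IECs, and Igkc, an antibody light chain gene, stood at 527, 299 and 357 CPM against 10.1, 117 and 12.1 CPM. The 6 mesenchymal markers, all detected, summed to 453 to 963 CPM against 12.8 to 881 CPM, with overlap, and Epcam, an epithelial surface protein, was at 1099 to 1381 against 1535 to 1612 CPM. Of 7 goblet genes 3 were lower (5221 to 7490 against 12508 to 14859 CPM), of 6 stem cell genes 2 were lower (349 to 558 against 795 to 1100.1 CPM), and of 5 distal genes 1 was lower (579 to 800.2 against 907 to 1218 CPM). Their part in the defensin levels was not tested. Lyz1 stood at 332, 1177 and 353 CPM against 2248, 1557 and 2273 CPM, with the same libraries high and low, and was not called (log2 -1.71, adjusted p = 0.182). Of the 8 Paneth genes outside the family 2 were lower, Mmp7 (log2 -2.38) and Itln1 (-2.07), and the list summed to 803 to 1771 against 2953 to 4826 CPM.

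**Figure D5:**
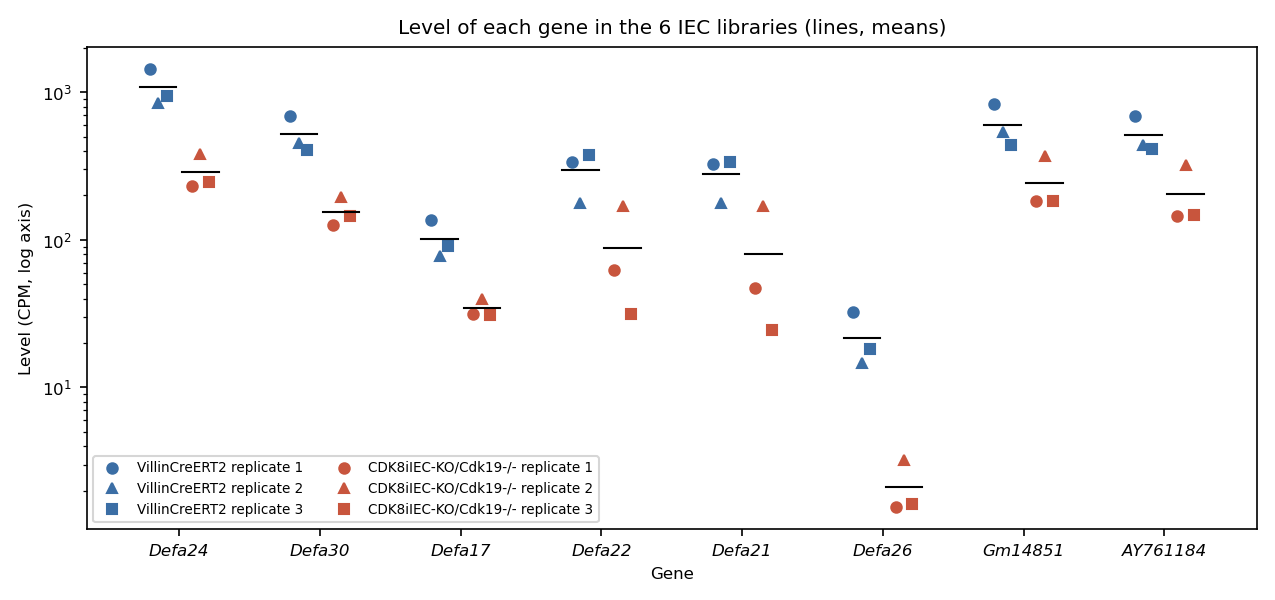
Level of each gene in the 6 IEC libraries, in CPM on a log axis, with VillinCreERT2 in blue, CDK8iIEC-KO/Cdk19-/- in red, a symbol for each replicate number and lines for means. The red mean lies below the blue mean of each gene, and the red triangle (replicate 2) is the highest red point for each gene.

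Most other alpha-defensins tested were lower in organoids with both kinases lost. The tables held 37 other alpha-defensin genes, 20 protein coding and 17 pseudogenes, of which 3 pseudogenes were at 0 in all 57 libraries. Of the 13 tested in the organoid lines 10 were lower in CDK8iIEC-KO/Cdk19-/- than in VillinCreERT2 (7.95% of all genes tested were). All 13 were lower than in Cdk8fl/fl/Cdk19-/- (4.26% of all genes were). Defa34, Defa20, Defa2 and Defa5 reached the 50 counts needed for naming only in VillinCreERT2, so lower counts in the other group were built in. Their mean counts were 79.7, 73.7, 50.3 and 131 in VillinCreERT2, against 4, 13.3, 9.67 and 31 in CDK8iIEC-KO/Cdk19-/-. Their log2 fold changes of -4.07, -2.25, -2.17 and -1.87 describe these genes and add no support. The filter on low counts can likewise pass a gene through its higher group alone. With CDK8 alone lost 5 of 13 were higher than in VillinCreERT2 (2.9% of all genes tested were) and none was lower. With CDK19 alone lost 2 of 13 were higher than in C57BL/6 (2.86% of all genes were) and none was lower. In the time course 3 of 11 were higher (6.42% of all genes were) and none lower at day 3. At each of days 5, 7 and 10, 9 of 11 were lower (4.62%, 9.25% and 6.92% of all genes were). In Wnt3-CM 5 of 8 were lower (7.42% of all genes were). In the Cdk19D173A/- line 5 of 10 were lower and 1 higher (6.25% and 6.05% of all genes were). In IECs 1 of 15 was lower (0.856% of all genes were).

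Defa29, which lies on the minus strand and shares stretches with Gm14851, was among those called higher. It was higher in CDK8iIEC-KO organoids (log2 1.06, adjusted p = 0.000115), at day 3 (1.6, adjusted p = 1.3e-07) and in the Cdk19D173A/- line after 4-OHT (1.22, adjusted p = 5.04e-06). In CDK8iIEC-KO/Cdk19-/- against VillinCreERT2 organoids it was at log2 0.08 with no call. Its response in the Cdk19D173A/- line was higher than in the Cdk19-/- line by 1.76 (adjusted p = 4.72e-05).

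A list of 15 genes of defensin processing, regulation and secretion was drawn up with earlier results known, namely Mmp7, Atoh1, Gfi1, Spdef, Sox9, Xbp1, Nod2, Tcf7l2, Ctnnb1, Fzd5, Wnt3, Ephb3, Kcnn4, Atg16l1 and Myd88. In CDK8iIEC-KO/Cdk19-/- against VillinCreERT2 organoids 6 of 15 were lower (7.95% of all genes tested were) and 1 higher. The list median was -0.35 against a median over all genes of -0.0021. Mmp7, the protease that activates mouse alpha-defensins, was at log2 -0.77 (adjusted p = 4.42e-08). Of the regulators, the secretory factor Atoh1 was at -0.80, Spdef at -0.85 and the Wnt target Sox9 at -0.73, and of the Wnt genes Wnt3 was at -1.39 and the receptor gene Ephb3 at -0.78. Nod2, a sensor of bacterial cell wall, was higher (2.48, adjusted p = 1.86e-06), while Tcf7l2 (0.36) and Ctnnb1 (-0.17), which code for a TCF factor and beta-catenin, were under 1.5-fold.

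With 1 kinase lost, 1 gene of the list, Nod2, was higher in CDK8iIEC-KO (2.9% of all genes tested were) and none was called in Cdk8fl/fl/Cdk19-/-. In the time course 1 was lower and 3 higher at day 3 (6.42% of all genes were higher). At day 5, 3 were lower (Mmp7 -0.77, Atoh1 -0.78, Wnt3 -1.08), at day 7, 6 were lower and 1 higher, and at day 10, 6 were lower. Of all genes 4.62%, 9.25% and 6.92% were lower at these days. In Wnt3-CM 5 were lower (7.42% of all genes were) and 1 higher, with Mmp7 at -1.14. In the Cdk19D173A/- line 5 were lower (6.25% of all genes were), with Mmp7 at -1.94 and Atoh1 at -0.22 without a call (adjusted p = 0.188). The Mmp7 response in this line was lower than in the Cdk19-/- line by 1.03 on the log2 scale (adjusted p = 0.000332). In IECs Mmp7 was the 1 gene called (-2.38, adjusted p = 0.0166), where 0.856% of all genes were called lower.

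Genes with the pattern most like the summed level were sought among 11585 candidates over the 24 time course libraries, which share treatment, time and line. Itln1, which codes for the lectin intelectin, came first (r = 0.96 on log2 CPM), and Ang4, a ribonuclease gene of Paneth cells, was also among the first 10 (r = 0.95). Over the 15 libraries of the day 7 lines, which differ in genotype and line, the same genes had r = 0.97 and 0.99. The rest of the first 10 were Noc2l, Tiam1, Mybbp1a, Hmga1b, Nup188, Hmga1, Parp1 and Vars, with r from 0.94 to 0.95 in the time course and from -0.04 (Hmga1b) to 0.85 (Noc2l) in the lines.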

How the data were processed

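The authors aligned poly-A selected, 100 bp paired-end reads with STAR 2.5.2 to mm10 and counted them per gene with featureCounts (Subread 1.6.3), per the labels; strand, multimapping and annotation settings are not given in the sources used here. They deposited raw counts in 4 tables. Samples were grouped by their labels, with columns of the Cdk19D173A/- organoids assigned by elimination. The 6 IEC columns whose names the labels do not explain were not used, so the planned comparison of Cdk19KO/D173A with Cdk19wt/D173A IECs was not run.

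Each table was filtered (filterByExpr), scaled (TMM) and fitted with edgeR 4.0.16 quasi-likelihood F tests (robust, R 4.3.3), with p adjusted by Benjamini-Hochberg over all genes tested. A call needed an adjusted p under 0.05 and over 1.5-fold, as in the study. Standard errors were obtained as the absolute log2 fold change over the square root of the F statistic. Summed levels are log2 ratios of group means, with no p. Responses in 2 tables were compared in 1 fit of their counts. Alternatives included DESeq2 1.42.0 and limma 3.58.1 voom, and the script was tested on simulated data. Sequence features came from GENCODE vM21 and RefSeq (GRCm38), read with Biopython 1.88. All 8 members were named in every comparison, other alpha-defensins by name at a mean of 50 or more counts in either group of CDK8iIEC-KO/Cdk19-/- against VillinCreERT2 organoids, and the 10 most similar genes by Pearson r. The members and gene lists were chosen with earlier results of these data known. In the 12 comparisons whose columns tie to replicate numbers of the labels, not every same-numbered pair deviated together (lowest correlation from -0.41 to 0.044, highest from -0.0075 to 0.232). Replicate numbers were therefore not taken to pair samples. The numbers within the column names differ in part from those of the labels, and pairing by them was not checked. No libraries had identical values.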

Additional observations from a re-analysis of the deposited data

Results flagged for a closer look

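The 4-OHT response of all 8 genes differed between day 3 and day 5 of the time course by the interaction term of the edgeR fit, each lower at day 5. On the log2 scale the differences were -1.35 for Defa17, -1.44 for Defa21, -1.18 for Defa22, -1.06 for Defa24, -1.23 for Defa26, -1.13 for Defa30, -1.08 for Gm14851 and -2.37 for AY761184. The responses of the Cdk19D173A/- and Cdk19-/- lines at day 7 differed past the 1.5-fold limit for the CRS members, by 1.2 for Gm14851 and 1.75 for AY761184, both higher in the Cdk19D173A/- line. The difference for Defa24 (-0.39, adjusted p = 0.0395) was under that limit. DESeq2 and limma-voom gave the same counts of 8 and 2.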

How the results depend on the processing

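Counts of members called stayed within 1.5 times with the same direction, and summed levels moved by less than the replicate spread or kept their sign, under the alternatives below except as listed (DESeq2, limma-voom, other scalings, no filter, the compared groups alone, a replicate block and each library left out). The control line, an alternative chosen after seeing the data, mattered most. With C57BL/6 as the control, CDK8iIEC-KO had 6 members called lower in place of 2 higher and a summed log2 ratio of -0.86, with Defa17 at -2.19, Defa22 at -0.98, Defa30 at -1.69 and Gm14851 at -1.19; CDK8iIEC-KO/Cdk19-/- had 8 called lower and a sum of -2.54, with Defa17 at -2.23 and Gm14851 at -2.05. With VillinCreERT2 as the control, Cdk8fl/fl/Cdk19-/- had 7 called higher and a sum of 0.64, with Defa17 at 1.95, Defa26 at 0.93, Defa30 at 1.26 and Gm14851 at 2.09. The cause was not tested. Leaving Defa17 out of the sum, also chosen later, moved CDK8iIEC-KO/Cdk19-/- against VillinCreERT2 to -1.80 by construction, and summing all alpha-defensin genes moved no ratio beyond the replicate spread. The summed response of the Cdk19D173A/- line minus that of the Cdk19-/- line, -0.02, had no stable sign, from -0.13 to 0.06 with 1 library left out and 0.07 over all alpha-defensin genes.

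With a replicate block the IEC comparison had 0 members called (adjusted p from 0.102 to 0.108 for the 4 called without it), and the block changed no other count by more than 1.5 times. No paired analysis was possible for the Wnt3-CM and Cdk19D173A/- organoids because their columns carry no replicate number of the labels. At day 3, 2 members were called higher under upper quartile scaling, total counts or the compared groups alone. EtOH day 10 against day 7 had 3 calls under total counts, and the Cdk19D173A/- line 6, all lower, under upper quartile scaling or total counts. Leaving out 1 library at a time gave 0 to 7 calls in IECs, 1 to 3 for Cdk8fl/fl/Cdk19-/- against C57BL/6, 1 to 2 at day 3, 0 to 1 for day 10 minus day 7 and for Wnt3-CM minus day 10, 1 to 2 for EtOH day 5 against day 3, 2 to 3 for EtOH day 10 against day 7, and 5 to 7 in the Cdk19D173A/- line. Of 2304 values for single genes, 34 lost a call, 26 gained one and 10 turned, counting as turned only values called in either fit. The other 2234 kept their call or lack of one, though uncalled values near 0 could change sign. AY761184 in Wnt3-CM (11 to 61 counts per library) and Defa26 in CDK8iIEC-KO/Cdk19-/- IECs (30 to 64 counts) rested on few counts. So did Defa21 (47 to 53) and Defa26 (75 to 89) in CDK8iIEC-KO/Cdk19-/- organoids, and AY761184 after 4-OHT at day 10 (38 to 63).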
